A study of Homo sapiens with 24 samples.

Results

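The box C/D small nucleolar RNAs (snoRNAs) and small Cajal body-specific RNAs (scaRNAs) of ARP1 cells, a human multiple myeloma line, are described here. They were taken as every row of the deposited expression table whose symbol starts with SNORD or SCARNA, which gave 92 of 19158 genes: 71 SNORD genes and 21 SCARNA genes. The cells had been cultured for 24 h with LPA, or with its vehicle PBS. The labels write LPA as an abbreviation, taken here to be lysophosphatidic acid, and give 4 mg/mL, a unit that may be wrong for this lipid. Total RNA was sequenced from 3 libraries per treatment, each run in 4 lanes that were averaged into 1 replicate, so n = 3 per group. The labels do not name separate cultures for them, so p-values measure the spread between these libraries, which may be technical. Values are in FPM, reads scaled to a common library total, and ± is the SD.

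Box C/D snoRNAs are short nuclear RNAs, mostly cut from introns of host genes, that pair with other RNAs and direct fibrillarin, the methyltransferase of their particle, to add methyl groups to ribose. Most act on ribosomal RNA (rRNA) in the nucleolus, some act on the spliceosomal U6 RNA, and a few, led by U3 and U8, are needed for cleavage of the rRNA precursor rather than for its modification. The scaRNAs are close relatives that collect in Cajal bodies and guide methylation or pseudouridylation of the spliceosomal small nuclear RNAs (snRNAs). They carry C/D boxes, H/ACA boxes or both.

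The RNAs that carry the results are shown first, as DNA letters of the GENCODE release 29 transcripts, 5′ to 3′. In the SNORD sequences and SCARNA6, capitals mark the first TGATGA (in SNORD97, which has none, the first GATGA), the letters of box C, and the last CTGA, the letters of box D. SNORD97 holds no CTGA. In SCARNA13, a scaRNA of the H/ACA kind, capitals mark the last ACA. SNORD3A encodes U3, the most abundant member, and SNORD118 encodes U8.
SNORD3A: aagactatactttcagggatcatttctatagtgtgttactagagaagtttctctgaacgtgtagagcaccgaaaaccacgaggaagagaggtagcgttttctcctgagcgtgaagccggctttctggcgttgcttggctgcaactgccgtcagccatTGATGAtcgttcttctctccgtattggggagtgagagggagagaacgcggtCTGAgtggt
SNORD118: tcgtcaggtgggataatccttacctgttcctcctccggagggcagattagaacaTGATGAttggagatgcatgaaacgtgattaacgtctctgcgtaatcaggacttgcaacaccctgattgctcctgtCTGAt
SNORD33, SNORD97 and SNORD89 are, with U8, among the tested SNORD genes with the 5 lowest log2 fold changes of FPM + 1, LPA over PBS, and SNORD11 is the one that differed most in the other direction.
SNORD33: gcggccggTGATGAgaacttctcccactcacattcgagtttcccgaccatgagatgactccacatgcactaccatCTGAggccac
SNORD97: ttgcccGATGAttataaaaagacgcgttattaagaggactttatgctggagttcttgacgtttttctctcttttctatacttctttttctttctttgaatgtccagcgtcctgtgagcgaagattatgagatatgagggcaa
SNORD89: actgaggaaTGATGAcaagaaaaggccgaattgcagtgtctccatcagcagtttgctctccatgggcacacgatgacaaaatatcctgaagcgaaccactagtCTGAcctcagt
SNORD11: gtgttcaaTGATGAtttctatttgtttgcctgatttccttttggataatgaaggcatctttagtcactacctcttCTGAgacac
SCARNA13 and SCARNA6 stand for the H/ACA scaRNAs and for the scaRNAs that join C/D and H/ACA parts.
SCARNA13: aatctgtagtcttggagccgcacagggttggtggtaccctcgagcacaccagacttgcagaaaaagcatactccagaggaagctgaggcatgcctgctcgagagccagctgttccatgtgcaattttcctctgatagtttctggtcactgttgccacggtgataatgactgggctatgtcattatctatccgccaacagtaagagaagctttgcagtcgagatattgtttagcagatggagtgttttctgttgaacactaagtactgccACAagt
SCARNA6: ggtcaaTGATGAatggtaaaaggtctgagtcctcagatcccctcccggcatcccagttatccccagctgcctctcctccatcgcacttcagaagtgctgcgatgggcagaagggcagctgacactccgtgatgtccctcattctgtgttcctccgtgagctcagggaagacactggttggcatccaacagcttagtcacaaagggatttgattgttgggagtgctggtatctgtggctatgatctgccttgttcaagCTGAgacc

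In U3 and U8 the marked box C letters start at positions 158 and 55, far from the 5′ end, while in SNORD33 and SNORD89 they start at positions 9 and 10. The letters GATGA, searched on the strand of the RNA, occurred in the first 25 bases of 46 of the 71 SNORD genes (64.8%), of 5 of the 20 SCARNA genes with a sequence (25%), and of 3 of the 149 SNORA transcripts of the same release (2.01%). The letters CTGA occurred in the last 20 bases of 67 SNORD genes (94.4%), 8 SCARNA genes (40%) and 13 SNORA transcripts (8.72%). These counts describe letters in a window and no tested site. SCARNA17 was left out of them, because its identifier in the table is that of the long RNA SNHG22, which contains it.

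Library totals ran from 6941747 to 8740992 reads with LPA and from 5498910 to 5615625 with PBS, so that 1 read was worth between 0.114 and 0.182 FPM. SNORD and SCARNA genes together took between 0.384% and 0.431% of the reads in the LPA libraries and between 0.467% and 0.721% in the PBS libraries. Of the 8 plasma cell markers, JCHAIN, IRF4, XBP1, TNFRSF17, PRDM1 and SDC1 had means between 118.2 and 1379 FPM with LPA and between 60.65 and 753.5 FPM with PBS. The other 2 were low: CD38 averaged 5.95 FPM with LPA and 7.28 FPM with PBS, and MZB1 4.89 FPM with LPA and 3.07 FPM with PBS. PBS 2 and LPA 3 stood apart from the other libraries of their groups. In a chi-square comparison of whole reads, PBS 2 gave 3.97 and 4.05 per degree of freedom against the other PBS libraries and LPA 3 gave 2.51 and 2.98 against the other LPA libraries, while PBS 1 with PBS 3 gave 1.36, LPA 1 with LPA 2 gave 1.37, and a library of one group with one of the other between 7.86 and 13.8. PBS 2 was the lowest PBS library in 20 of the 28 tested SNORD genes and in 12 of the 18 tested SCARNA genes. Results are therefore given with and without it where it matters. That reason comes from these same genes. Wherever PBS 2 was the lowest PBS library, leaving it out moves the fold change toward lower with LPA. A pass only without PBS 2 is thus no independent support for a fall.

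SNORD and SCARNA genes were lower with LPA as classes, and no tested gene of either class passed the test in the other direction. The summed SNORD level was 3359, 2943 and 3385 FPM in LPA 1 to 3, against 5345, 3567 and 5942 FPM in PBS 1 to 3, a mean 34.8% lower. For SCARNA genes the sums were 952, 893 and 894 FPM with LPA, against 1242, 1108 and 1265 FPM with PBS, a mean 24.2% lower. These sums include the SCARNA17 row, and without SCARNA9 and SCARNA17 the mean was 24.6% lower. In both classes every LPA library lay below every PBS library, and PBS 2 was the nearest of the PBS libraries to the LPA group. Without PBS 2 and LPA 3 the means were 44.2% lower for SNORD and 26.4% lower for SCARNA.

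Set against each other, the classes did not separate the treatments. The ratio of summed SNORD to summed SCARNA levels was 3.53, 3.30 and 3.79 in the LPA libraries, against 4.30, 3.22 and 4.70 in the PBS libraries, so the groups overlapped through PBS 2. The SNORD sum is mostly U3: the 5 SNORD3 genes took between 89.2% and 90.8% of it in every library. With the SNORD3 genes taken out, the other 66 SNORD genes summed to 321, 317 and 312 FPM with LPA, against 496, 374 and 558 FPM with PBS. Their ratio to the SCARNA sum was 0.347 ± 0.00897 with LPA and 0.393 ± 0.0523 with PBS.

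**Figure D1:**
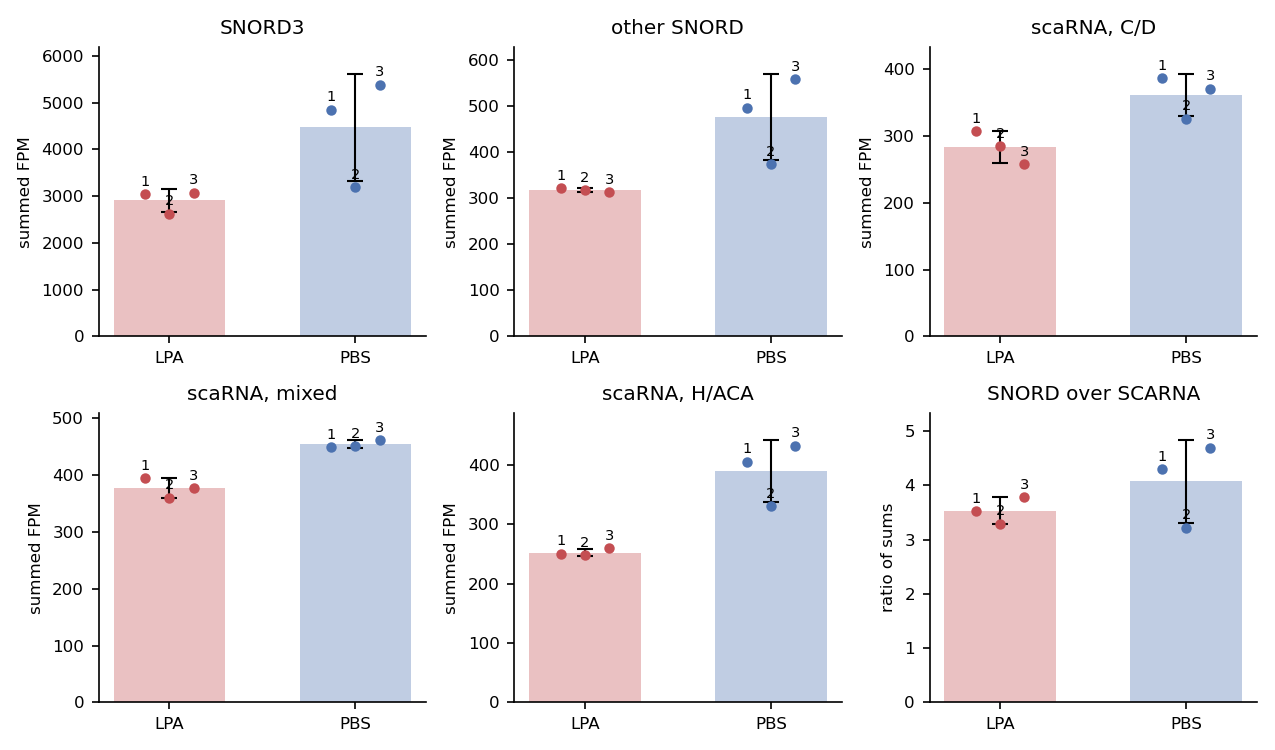
Summed level by library (FPM, or the ratio of sums in the last panel) of the SNORD3 genes, the other SNORD genes and 3 kinds of scaRNA, with LPA left of PBS. Points are the libraries with their numbers, bars the mean and error bars the SD (n = 3). In each of the 5 sums all LPA libraries lie below all PBS libraries, while the SNORD over SCARNA ratio overlaps, with PBS 2 at 3.22.

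Of the genes tested one by one, those that reached 1 FPM in 3 or more of the 6 libraries, 10 of 28 SNORD genes and 10 of 18 SCARNA genes fell with LPA and none rose (limma on log2(FPM + 1), Benjamini-Hochberg adjusted p below 0.05 over all 16274 tested genes). Among all tested genes, 4.49% fell and 22.5% rose. At an unadjusted limma p below 0.05, 1 SNORD gene, SNORD11, and 1 SCARNA gene, SCARNA9, were higher, and edgeR and DESeq2 called 0 of either class higher. The median log2 fold change, LPA over PBS, was -0.55 for the tested SNORD genes and -0.53 for the tested SCARNA genes, beside 0.13 for all tested genes. In 13 SNORD and 13 SCARNA genes all 3 LPA libraries lay below all 3 PBS libraries and in none above, beside 7.42% below and 31.4% above among all tested genes. One of the SNORD genes, SNORD67, passed the filter through its PBS libraries alone, so that it had to be lower with LPA. The SCARNA counts here and below include the SCARNA17 row, which fell and whose identifier is that of the long RNA SNHG22.

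The call counts rested in part on single libraries. Without PBS 2, 13 SNORD and 13 SCARNA genes fell and 1 SNORD gene, SNORD11, rose. Without PBS 1 the counts that fell were 6 and 5. Without LPA 3 they were 6 and 8, with SCARNA9 as 1 SCARNA gene that rose. The shares of all tested genes were not taken for these fits, so the moves cannot be read as particular to the members. Of the 20 genes that fell, 10 did so in each of the 6 fits that leave out 1 library: SNORD33, SNORD118, SNORD9, SNORD97, SNORD89, SNORD10, SCARNA13, SCARNA5, SCARNA6 and SCARNA17. By edgeR on the recovered reads 16 SNORD and 14 SCARNA genes fell, beside 9.40% of all genes (9.59% rose), and by DESeq2 9 and 8, beside 5.79% (4.92% rose), with no adjusted p for 11 and 3. On FPM rescaled so that the median gene does not shift, 9 and 11 fell, beside 9.45% of all genes, with median log2 fold changes of -0.67 and -0.64 beside 0.0011 for all genes. With a filter on the mean level, chosen after seeing the data, 10 SNORD and 10 SCARNA genes fell, beside 4.55%.

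**Figure D2:**
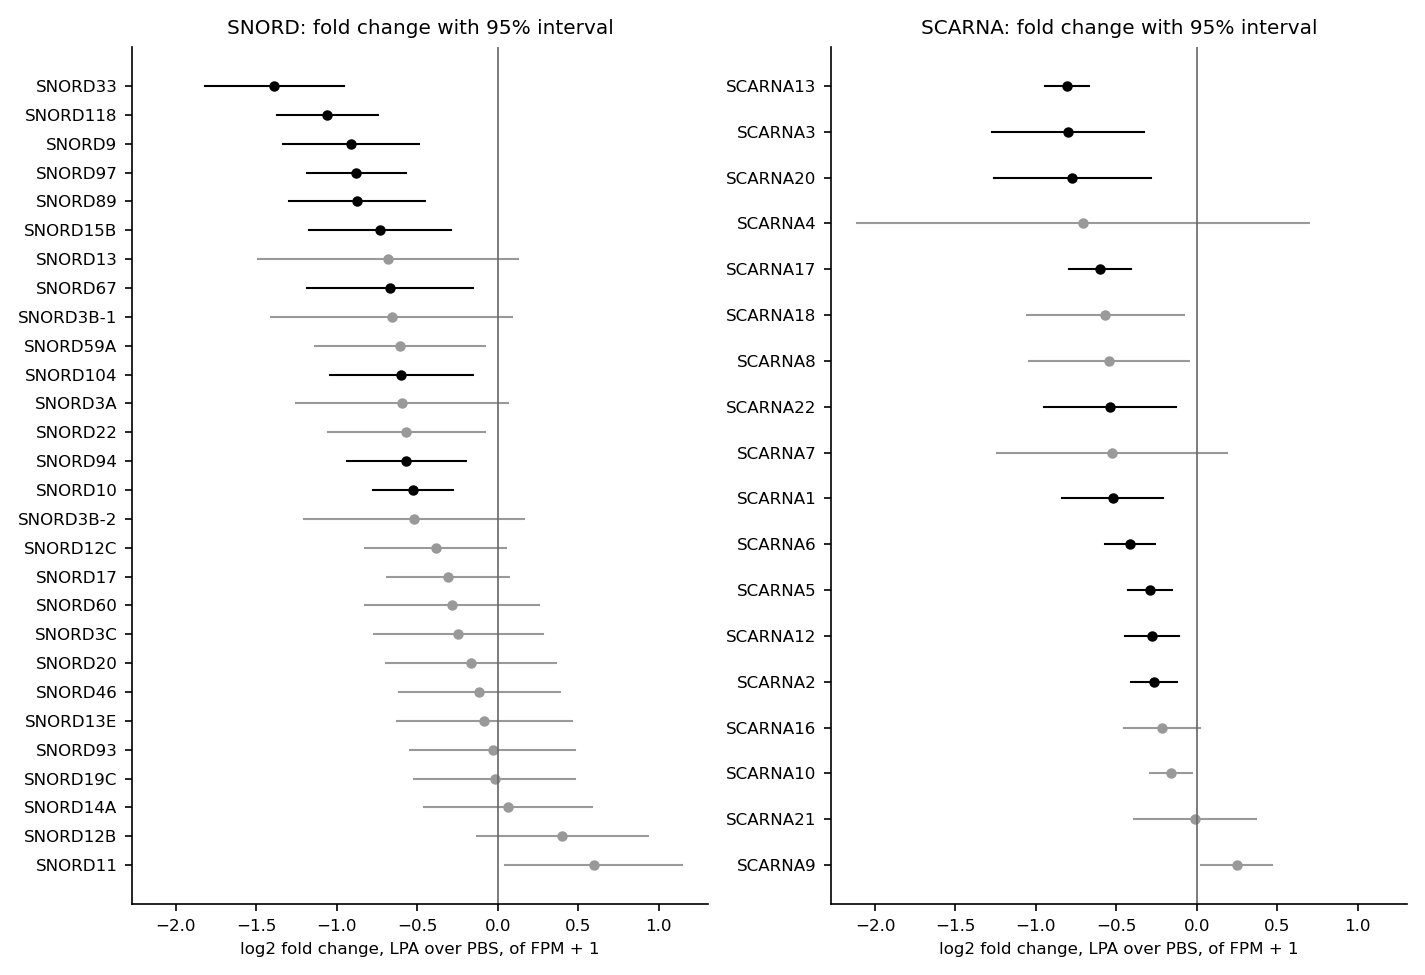
Fold change, LPA over PBS, as the difference of log2(FPM + 1), for the 28 tested SNORD genes (left) and 18 tested SCARNA genes (right), with 95% intervals from limma (n = 3 per group). Black marks the 10 genes of each class that fell and grey those that did not pass. SNORD33 lies lowest at -1.39 and SNORD11 highest at 0.60.

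FPM is a share of the reads of a library, so less of an RNA per cell and more of the other RNAs cannot be told apart here. Some other RNAs, noncoding or mitochondrially encoded, were lower with LPA too. The 113 SNORA genes, the H/ACA snoRNAs, summed to 4437 ± 193 FPM with LPA and 7444 ± 1401 FPM with PBS, 40.4% lower, and 60 of the 88 tested fell, with a median log2 fold change of -0.91. The 7SK RNA, which holds back transcription elongation, was 16.3% lower, RPPH1, the RNA of ribonuclease P, 10.8% lower, and the mitochondrially encoded genes 28.3% lower, while nuclear protein-coding genes took 1.12 times their share with PBS. The part of these shifts in the results was not tested.

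U3, which pairs with the rRNA precursor during maturation of the small ribosomal subunit, was the most abundant member by far. SNORD3A stood at 2641, 2252 and 2792 FPM in LPA 1 to 3, against 4287, 2806 and 4734 FPM in PBS 1 to 3. Its groups did not overlap, but PBS 2 lay only just above LPA 3. The log2 fold change was -0.59 (SE 0.24) and did not pass by limma (adjusted p = 0.168), it was -0.82 with an adjusted p of 0.0228 by limma without PBS 2, and edgeR and DESeq2 on reads gave adjusted p-values of 1.8e-04 and 0.0169.

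The copies of U3 had lower means with LPA and did not pass by limma. SNORD3B-2 had 210.3, 203 and 153 FPM with LPA, against 288, 202 and 333 FPM with PBS, and SNORD3B-1 had 185, 170.4 and 126 FPM with LPA, against 270.5, 185 and 315 FPM with PBS. In both, LPA 3 was the lowest of all libraries, and PBS 2 lay inside the LPA range. The limma adjusted p-values were 0.228 and 0.175, and both passed by edgeR (adjusted p = 0.0012 and 4.4e-04) but not by DESeq2 (adjusted p = 0.112 and 0.0645). The sequences of SNORD3B-1 and SNORD3B-2 are identical over 217 bases and differ from SNORD3A at 1 base, A78C, counted from the 5′ end, so how reads were shared among these copies is uncertain. SNORD3C, which also differs from SNORD3A at 1 base (G108A), was listed at 1.16 ± 0.42 FPM with LPA and 1.62 ± 0.81 FPM with PBS, and SNORD3E, with 84.4% identity, stayed under the filter.

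U8 fell. Needed in Xenopus for maturation of the large-subunit rRNAs, it is known in humans for variants that cause a brain white-matter disease with calcification and cysts. SNORD118 measured 6.87, 6.85 and 7.19 FPM with LPA, against 16.0, 11.6 and 20.4 FPM with PBS. The LPA libraries were nearly equal, and all lay below all PBS libraries. The log2 fold change was -1.06 (SE 0.16, limma adjusted p = 6.7e-07), and it stayed between -1.26 and -0.88 when any 1 library was left out. In GENCODE 29 SNORD118 lies in an exon of TMEM107, a gene of the ciliary transition zone, which had a log2 fold change of 0.36 (limma adjusted p = 0.082).

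The other genes with a role in rRNA processing did not pass by limma. U13, encoded by SNORD13 and required for acetylation of small-subunit rRNA, had 16.3, 20.6 and 13.3 FPM with LPA, against 32.9, 18.1 and 33.1 FPM with PBS. PBS 2 fell inside the LPA range. The log2 fold change was -0.68 (limma adjusted p = 0.192), and -0.96 without PBS 2 (limma adjusted p = 2.9e-07). With all libraries SNORD13 passed by edgeR (adjusted p = 0.00189) but not by DESeq2 (adjusted p = 0.0969). SNORD22, whose RNA takes part in small-subunit rRNA maturation in Xenopus, had 2.23 ± 0.33 FPM with LPA and 4.09 ± 2.19 FPM with PBS (log2 fold change -0.57, limma adjusted p = 0.0763), and -0.90 without PBS 2 (limma adjusted p = 0.00226). With all libraries SNORD22 passed by edgeR (adjusted p = 0.0427) but not by DESeq2 (adjusted p = 0.089). U14, which both processes and methylates, was tested only through SNORD14A. That gene had 1.44 ± 0.86 FPM with LPA and 1.26 ± 0.32 FPM with PBS, a difference within its spread. The other SNORD14 genes were under the filter and had lower means with LPA. SNORD14E had 0.602 FPM with LPA and 1.21 FPM with PBS, and SNORD14C 0.19 and 0.783. SNORD14D had 0.252 FPM with LPA and 0.482 FPM with PBS, and SNORD14B 0.134 and 0.484. With no filter none of them passed by limma (adjusted p between 0.0532 and 0.523). SNORD13E, a gene named for U13, was at 0.994 ± 0.76 FPM with LPA and 1.02 ± 0.0999 FPM with PBS. SNORD14A and SNORD13E did not pass by edgeR (adjusted p = 0.969 and 0.808).

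The table listed 5 SNORD genes that guide methylation of the spliceosomal U6 RNA. They were grouped after their values were seen, so their count supports nothing about such guides as a group. SNORD9, SNORD10, SNORD94 and SNORD67 were tested and fell, beside 4.49% of all tested genes, and SNORD67 had to be lower because it passed the filter through PBS alone. The other, SNORD8, was under the filter at 0.346 FPM with LPA and 1.02 FPM with PBS. SNORD9 had 2.29, 2.15 and 2.59 FPM with LPA, against 5.71, 3.79 and 6.72 FPM with PBS (log2 fold change -0.91, SE 0.21, limma adjusted p = 7.6e-04). SNORD10 had 22.3, 17.9 and 26.1 FPM with LPA, against 30.1, 28.2 and 38.2 FPM with PBS (log2 fold change -0.53, SE 0.12, limma adjusted p = 0.00138). In both, no LPA library reached the lowest PBS library. SNORD94 had 4.69, 5.51 and 5.18 FPM with LPA, against 9.96, 5.60 and 9.27 FPM with PBS, with LPA 2 close to PBS 2 (log2 fold change -0.57, limma adjusted p = 0.0163). Its call was lost without LPA 1, LPA 3, PBS 1 or PBS 3 (limma adjusted p up to 0.139). SNORD67 had 0.457, 0.805 and 0.577 FPM with LPA, against 1.43, 1.81 and 1.45 FPM with PBS. These are a few reads per library, and its limma adjusted p of 0.0444 moved to between 0.0563 and 0.159 when any 1 library was left out.

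Among guides of other targets, SNORD33 had the lowest log2 fold change of all members. It guides small-subunit rRNA methylation, is one of several snoRNAs of the ribosomal protein gene RPL13A, which are known from work on lipid toxicity in rodent cells. The release 29 annotation places it in an exon of an RPL13A transcript. Its level was 3.89, 4.03 and 1.58 FPM with LPA, against 10.2, 7.59 and 10.9 FPM with PBS. The highest LPA library was well below the lowest PBS library, and the log2 fold change stood at -1.39 (SE 0.21, adjusted p by limma 5.1e-06). RPL13A itself differed by -0.01 (limma adjusted p = 0.899). SNORD32A, its neighbour in the same host, was under the filter and stood at 0.232 FPM with LPA and 1.02 FPM with PBS, and it passed when no filter was set (log2 fold change -0.72, limma adjusted p = 0.0172).

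SNORD97, a guide of methylation in the elongator methionine tRNA, had 32.7, 27.9 and 26.2 FPM with LPA, against 56.6, 41.8 and 65.8 FPM with PBS. The groups were apart (log2 fold change -0.88, SE 0.14, limma adjusted p = 5.4e-04). It lies in an exon of EIF4G2, a translation initiation factor gene that rose (log2 fold change 0.29, limma adjusted p = 1.9e-05), and on the opposite strand from CTR9, and the strand setting of the counting is not given in the sources used here. SNORD89 had 1.95, 2.95 and 2.01 FPM with LPA, against 5.70, 4.16 and 5.27 FPM with PBS (log2 fold change -0.88, SE 0.21, limma adjusted p = 0.00115). Here the host moved the same way: RNF149, a ubiquitin ligase gene in whose exon SNORD89 lies, fell with a log2 fold change of -0.37 (limma adjusted p = 6.0e-05).

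SNORD15B, a guide of large-subunit rRNA methylation, measured 55.5, 54.4 and 56.0 FPM with LPA, against 96.3, 70.7 and 115.8 FPM with PBS. The LPA libraries were nearly equal and the PBS libraries spread widely above them. The log2 fold change was -0.73 (SE 0.18, limma adjusted p = 0.0302), and the call was lost without any of the LPA libraries or without PBS 1 (limma adjusted p between 0.0678 and 0.13) and on rescaled FPM (limma adjusted p = 0.0768). SNORD15A, from the same host gene, RPS3, had 8 reads in LPA 3 and 0 in LPA 1 and LPA 2, which allows up to 0.343 and 0.403 FPM there, against 4 or 5 reads in each PBS library. In GENCODE 29 SNORD15A overlaps an exon of RPS3 and SNORD15B does not.

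SNORD104 had 2.36 ± 0.84 FPM with LPA and 4.02 ± 0.78 FPM with PBS, and fell (log2 fold change -0.60, limma adjusted p = 0.0369), but not without LPA 3, PBS 1 or PBS 3 (limma adjusted p up to 0.268). SNORD17, the most abundant SNORD gene outside U3 and a guide of large-subunit rRNA methylation, had 136, 139 and 132 FPM with LPA, against 184, 133 and 196 FPM with PBS. The 3 LPA libraries sat together, and PBS 2 lay among them. It did not pass by limma (log2 fold change -0.31, adjusted p = 0.21), and without PBS 2 it did (-0.48, limma adjusted p = 2.0e-08). With all libraries it passed by edgeR (adjusted p = 0.00196) but not by DESeq2 (adjusted p = 0.111).

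A few members leaned the other way without passing. SNORD11, from an intron of NOP58, had 2.29, 1.35 and 2.01 FPM with LPA, against 0.176, 1.99 and 0.915 FPM with PBS. The spread within PBS was as wide as the difference; the log2 fold change was 0.60 (limma adjusted p = 0.101), and without PBS 2 it was 0.93 (limma adjusted p = 0.00977). SNORD12B, from ZFAS1, was at 1.53 ± 0.43 FPM with LPA and 0.963 ± 0.64 FPM with PBS (log2 fold change 0.40, limma adjusted p = 0.275). SNORD12C, from the same host, had a log2 fold change of -0.39 (limma adjusted p = 0.197). SNORD19C and SNORD93 were near 0, at -0.02 and -0.03.

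**Figure D3:**
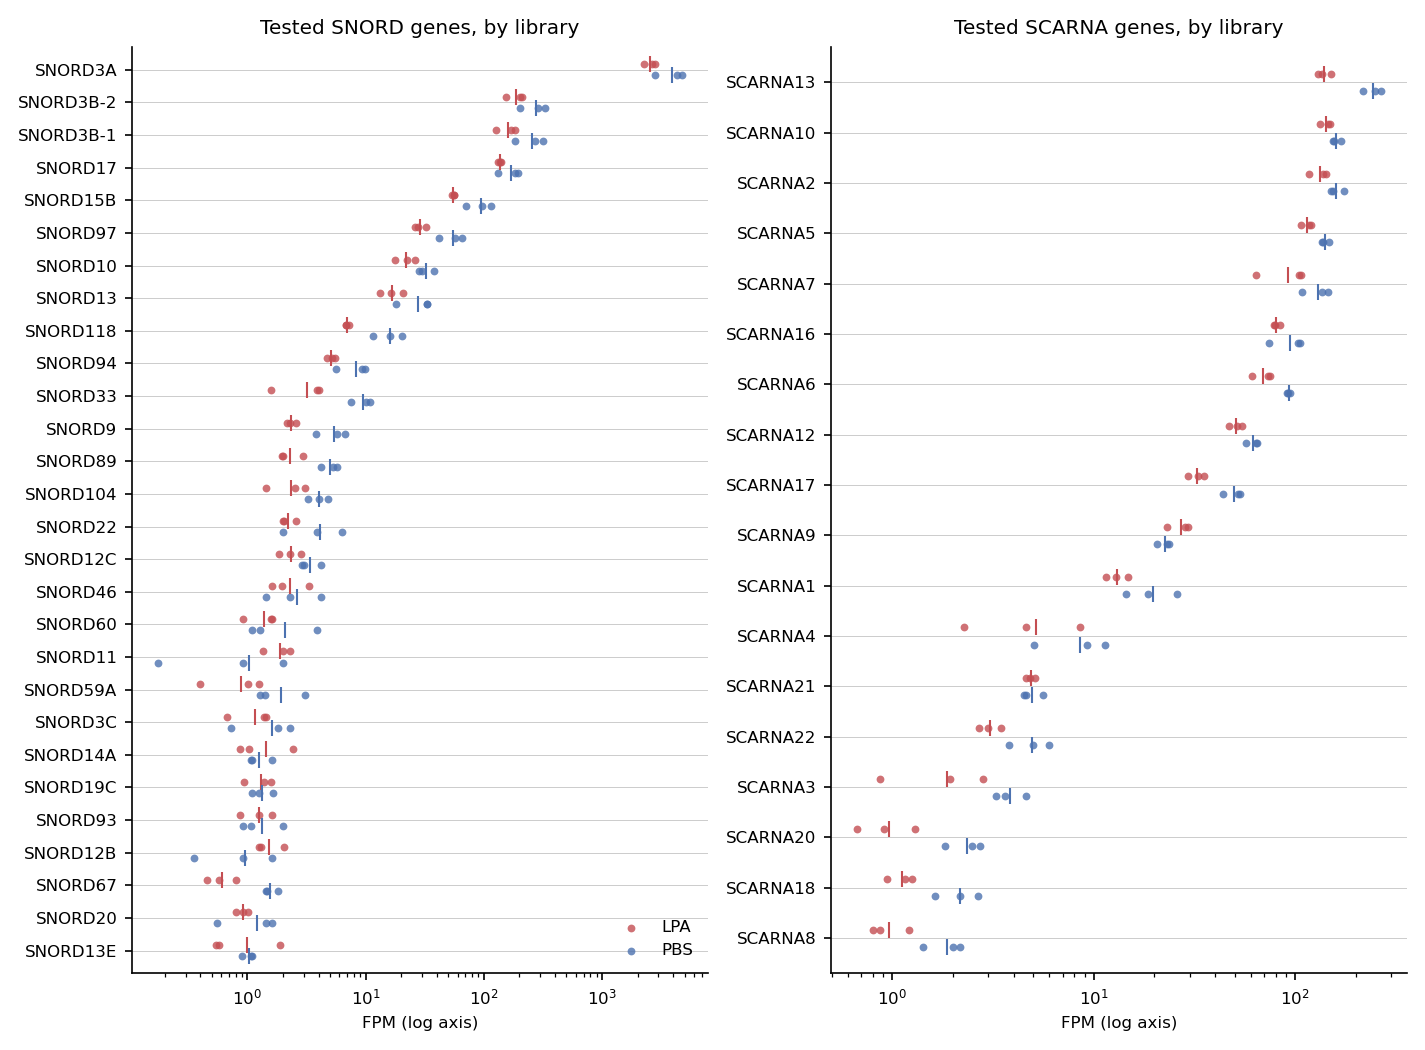
Level in FPM (log axis) of each tested SNORD gene (left) and SCARNA gene (right) in every library, with the LPA row above the PBS row of each gene. Points are libraries and vertical ticks the mean of 3. SNORD3A sits alone, with its lowest library at 2252 FPM, most SNORD genes lie below 10 FPM, and for SCARNA13 all LPA libraries are at or below 151 FPM and all PBS libraries at or above 217 FPM.

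SCARNA13, an H/ACA scaRNA that guides pseudouridylation of U2 and U5 snRNA, was the scaRNA with the highest mean level over the 6 libraries and, on the log2(FPM + 1) scale, the lowest fold change; by edgeR its log2 fold change of -0.96 was above those of SCARNA20 (-1.42), SCARNA3 (-1.15), SCARNA8 (-1.09) and SCARNA18 (-1.08). It stood at 136, 130.4 and 151 FPM with LPA, against 250.3, 217 and 266 FPM with PBS. There was no overlap and little spread in either group (log2 fold change -0.80, SE 0.07, limma adjusted p = 1.8e-12). It lies on the opposite strand from GLRX5. Summed over the 13 H/ACA scaRNAs, the level was 252 ± 6.13 FPM with LPA and 389 ± 52.6 FPM with PBS, 35.2% lower, and 5 of the 10 tested fell.

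The others of these that fell were at lower levels and less certain. SCARNA1, a guide of U2 snRNA, had 12.9, 14.8 and 11.5 FPM with LPA, against 18.7, 14.5 and 25.8 FPM with PBS, and passed by limma although PBS 2 lay inside the LPA range (log2 fold change -0.52, adjusted p = 0.011). Its call was lost without LPA 3, without PBS 3 (limma adjusted p = 0.0951 and 0.13) and on rescaled FPM (0.0565). SCARNA3 had 1.88 ± 0.98 FPM with LPA and 3.84 ± 0.70 FPM with PBS, and SCARNA20, a guide of the minor spliceosome's U12 snRNA, 0.959 ± 0.31 FPM with LPA and 2.34 ± 0.46 FPM with PBS. Their log2 fold changes were -0.80 and -0.77 (limma adjusted p = 0.00768 and 0.014), and neither passed without PBS 1 (limma adjusted p = 0.0609 and 0.0507), nor did SCARNA3 without LPA 3 (0.132) or SCARNA20 without LPA 2 (0.0731). SCARNA22 fell too (log2 fold change -0.54, limma adjusted p = 0.0429), a call kept in 1 of the 6 fits that leave out a library, the one without PBS 2.

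SCARNA16, a guide of U1 snRNA, was the second most abundant of this kind, with 83.8, 79.0 and 78.1 FPM with LPA, against 104, 74.3 and 106 FPM with PBS. PBS 2 was below every LPA library. The log2 fold change was -0.22 (limma adjusted p = 0.174), and -0.38 without PBS 2 (limma adjusted p = 3.2e-05). With all libraries SCARNA16 passed by edgeR (adjusted p = 0.0112) but not by DESeq2 (adjusted p = 0.217). SCARNA18 and SCARNA8 had 1.12 ± 0.16 and 0.958 ± 0.22 FPM with LPA, against 2.16 ± 0.52 and 1.86 ± 0.39 FPM with PBS; their groups did not overlap, but neither passed by limma (adjusted p = 0.0742 and 0.0968), SCARNA18 passing without PBS 2 (0.0367). By edgeR SCARNA18 passed (adjusted p = 0.0474) and SCARNA8 did not (adjusted p = 0.0563), and DESeq2 gave neither an adjusted p. SCARNA21 was level at 4.86 ± 0.27 FPM with LPA and 4.93 ± 0.60 FPM with PBS. SCARNA4 gave 2.26, 8.59 and 4.61 FPM in the LPA libraries, against 9.27, 5.05 and 11.3 FPM in the PBS libraries. It was listed at 0 in 12 of the 24 lanes and with 11 to 39 reads in each of the others, so that its library values rest on how many lanes gave reads, and its passing without LPA 2 (limma adjusted p = 0.00498) carries the same limit.

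The scaRNAs that join C/D and H/ACA parts had the smallest SDs among the scaRNA kinds with PBS, and smaller differences. Their 4 genes summed to 395, 360.3 and 377 FPM with LPA, against 449, 451 and 462 FPM with PBS, 16.9% lower, and PBS 2 did not stand apart here. SCARNA5 and SCARNA6, neighbours within the autophagy gene ATG16L1 and 63.6% identical, had 117, 106 and 119.8 FPM and 74.7, 60.9 and 73.0 FPM with LPA, against 137, 147 and 136 FPM and 91.5, 92.5 and 93.8 FPM with PBS. Neither overlapped between groups (log2 fold changes -0.29 and -0.41, limma adjusted p = 8.3e-04 and 4.5e-05), while ATG16L1 had a log2 fold change of 0.10 (limma adjusted p = 0.507). SCARNA12, in an exon of PHB2, had 50.9 ± 3.94 FPM with LPA and 61.9 ± 4.13 FPM with PBS (log2 fold change -0.28, limma adjusted p = 0.00979), and missed the threshold without LPA 2, PBS 1 or PBS 3 (limma adjusted p = 0.0909, 0.0525 and 0.0595). SCARNA10, a guide of U5 snRNA, was at 143 ± 8.86 FPM with LPA and 159 ± 7.40 FPM with PBS (log2 fold change -0.16, limma adjusted p = 0.0625); it passed on rescaled FPM (-0.31, limma adjusted p = 0.00439) and without PBS 2 (0.0198).

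The scaRNAs with C/D boxes alone, with the SCARNA17 row included, were 21.6% lower in sum. SCARNA2, a guide of U2 snRNA methylation that has a promoter of its own, had 138, 117 and 142 FPM with LPA, against 174, 153 and 150 FPM with PBS. The log2 fold change was -0.27 (SE 0.07, limma adjusted p = 0.0039), and the call was lost without LPA 2 or PBS 1 (limma adjusted p = 0.0866 and 0.0666). The row labelled SCARNA17 had 32.5 ± 3.00 FPM with LPA and 49.8 ± 5.11 FPM with PBS (log2 fold change -0.60, limma adjusted p = 2.1e-06), and its identifier covers the whole of SNHG22, so the value is not that of the scaRNA alone. SCARNA7, a guide of U1 snRNA, had 106, 104 and 63.98 FPM with LPA, against 136, 108.5 and 146 FPM with PBS, and did not pass (log2 fold change -0.53, limma adjusted p = 0.239). LPA 3 was far below the others, and without it the log2 fold change was -0.29 (limma adjusted p = 0.0439). With all libraries SCARNA7 passed by edgeR (adjusted p = 0.00266) but not by DESeq2 (adjusted p = 0.163). SCARNA9, another U2 guide, was the scaRNA that leaned upward, with 29.4, 28.5 and 23.0 FPM with LPA, against 23.2, 20.6 and 23.6 FPM with PBS (log2 fold change 0.25, limma adjusted p = 0.0868; without LPA 3 it was 0.35 and 0.0263).

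Level went with length. The 49 SNORD genes of up to 100 nt had a median level of 0.526 FPM over the 6 libraries, and their highest was 6.36 FPM, for SNORD33. The 22 longer SNORD genes had a median of 3.77 FPM, and the 20 SCARNA genes with a length, of 125 to 420 nt, a median of 11.6 FPM. Per 100 nt the medians were 0.638, 3.47 and 6.16 FPM, so the longer RNAs were also higher per length. Across the 91 genes with a length, length and log2 FPM per 100 nt had Pearson's r = 0.67 and Spearman's rho = 0.49. Within the 71 SNORD genes they were 0.62 and 0.26, and within the 20 SCARNA genes 0.74 and 0.71. The genes share the same 6 libraries, so these values are given as a description.

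Per length, U3 from SNORD3A led with 1180.5 FPM per 100 nt with LPA and 1817 with PBS. The copies SNORD3B-2 and SNORD3B-1 came next with 86.9 and 73.9 FPM per 100 nt with LPA, against 126 and 118.2 with PBS. SCARNA13 had 50.7 with LPA and 88.9 with PBS, SNORD17 57.4 and 72.04, and SNORD15B 37.9 and 64.6. SNORD17 was thus above SCARNA13 with LPA and below it with PBS, and SNORD15B was below both in both groups. Of the longer SNORD genes 8 of 17 tested fell and of the shorter ones 2 of 11, with median log2 fold changes of -0.59 and -0.17, beside 4.49% of all tested genes. By edgeR the counts were 14 and 2, beside 9.40%, and the medians -0.84 and -0.54, and by DESeq2 the medians were -0.85 and -0.55. The pseudocount of 1 FPM draws low genes toward 0, and the shorter genes are the low ones. Its part in the difference between longer and shorter SNORD genes was not tested. The SCARNA genes went the other way. Length and log2 fold change had rho = -0.30 over the 28 tested SNORD genes and 0.53 over 17 tested SCARNA genes. Over all 45 tested members with a length rho was -0.025, as a description.

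**Figure D4:**
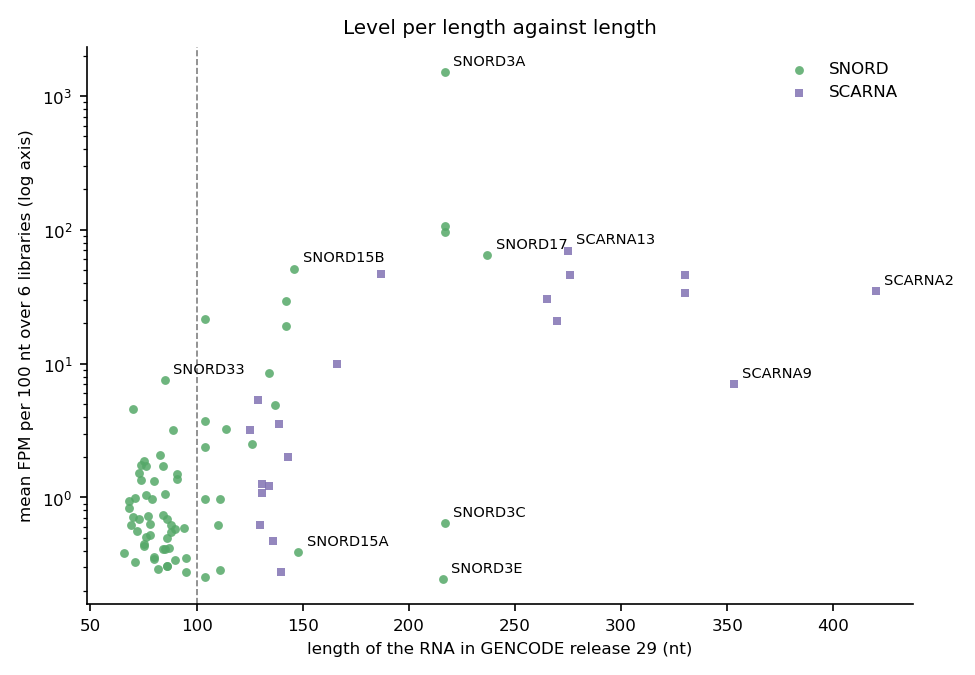
Mean level per 100 nt over the 6 libraries (log axis) against RNA length in nt for 71 SNORD genes (circles) and 20 SCARNA genes (squares), 1 point per gene, with a dashed line at 100 nt. Apart from SNORD3A at 1499 FPM per 100 nt, genes of up to 100 nt lie at or below 7.48 and several longer ones above 30, while SNORD3C, SNORD3E and SNORD15A are long and low.

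The remaining 46 genes, 43 SNORD and 3 SCARNA, were under the filter. Of the 92 members, 45 had a mean below 1 FPM, 42 SNORD and 3 SCARNA, and 18 had no read in at least 1 library. With no filter, 12 of 71 SNORD and 10 of 21 SCARNA genes fell and none rose, beside 3.89% and 18.6% of all 19158 genes. SNORD99 was the other low gene that passed in that fit, with 0.539 FPM with LPA and 1.45 FPM with PBS. SNORD62A and SNORD62B have identical sequences and identical reads and cannot be told apart.

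In GENCODE 29, 79 members lie within 61 host genes on the same strand, all of them tested: 31 hosts (50.8%) rose and 3 (4.92%) fell by limma, beside 22.5% and 4.49% of all tested genes, with a median log2 fold change of 0.22. On rescaled FPM 12 (19.7%) rose and 8 (13.1%) fell, beside 9.63% and 9.45% of all tested genes, so the calls of many hosts rest on the scaling. In 38 pairs both the member and the host were tested, and in 34 the member's log2 fold change was below that of its host. In 6 pairs the member fell while its host rose, with SNORD15B, SCARNA12, SNORD97, SNORD10, SCARNA1 and SNORD67 as the members, and SNORD89 fell with its host. Of these members SNORD67 had to be lower, because it passed the filter through PBS alone. SCARNA12, SNORD97 and SNORD10 lie in exons of their hosts PHB2, EIF4G2 and EIF4A1. How reads were shared between these members and their hosts is uncertain, since the counter and strand setting are not given. On rescaled FPM 2 of these 6 pairs kept both calls, SNORD97 (limma adjusted p = 0.0471) and SNORD67, and SCARNA10 with its host NCAPD2 was added. There SNORD15B and SCARNA1 no longer passed, nor did PHB2, EIF4A1 and RPS3, the hosts of SCARNA12, SNORD10 and SNORD15B, and SCARNA22 and its host NSD2 both fell (NSD2 limma adjusted p = 0.026). Across the 38 pairs r was 0.09 and rho 0.13, as a description over genes that share libraries.

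**Figure D5:**
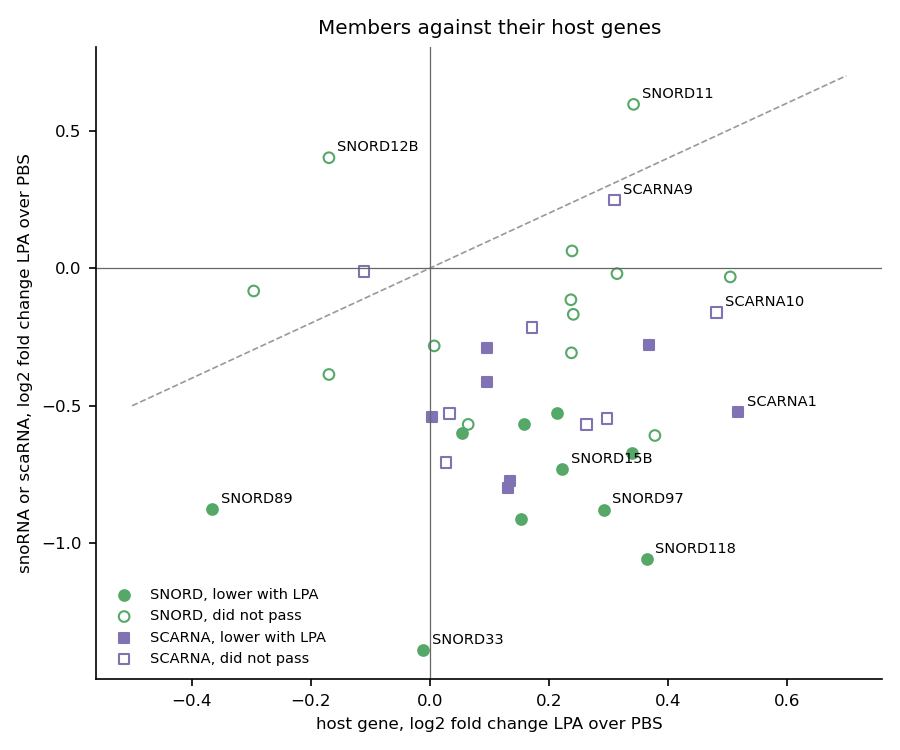
Log2 fold change of LPA over PBS on deposited FPM for 38 members (vertical) against their host genes (horizontal); filled marks fell with LPA and open marks did not pass, and the dashed line is equality. In 34 pairs the member lies below the line, and SNORD89 with RNF149 is the filled mark at the left.

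Of 46 genes of proteins that make and carry these RNAs, chosen with results of these data known, 23 rose and none fell by limma, beside 22.5% and 4.49% of all tested genes. None was lower at an unadjusted p below 0.05. On rescaled FPM 13 rose and 1, SART3, fell, beside 9.63% and 9.45%. By edgeR 13 rose and 1 fell, beside 9.59% and 9.40%, and by DESeq2 7 rose and 0 fell, beside 4.92% and 5.79%. By limma on the deposited FPM, the RNAs of all 4 core protein genes of the C/D particle rose. Fibrillarin (FBL), its methyltransferase, had 73.3, 81.9 and 63.99 FPM with LPA, against 60.3, 43.8 and 59.7 FPM with PBS (log2 fold change 0.42, SE 0.12, limma adjusted p = 0.0159). SNU13, which binds the box C and D fold, had 81.1, 83.4 and 85.2 FPM with LPA, against 59.3, 58.6 and 61.7 FPM with PBS (log2 fold change 0.47, limma adjusted p = 4.1e-06). Both were above every PBS library in every LPA library. NOP58 and NOP56, the scaffold pair, had log2 fold changes of 0.34 and 0.24 (limma adjusted p = 1.0e-04 and 0.012). On rescaled FPM 2 of the 4 core genes passed, SNU13 and NOP58. FBL and NOP56 did not pass there (limma adjusted p = 0.494 and 0.335). NOLC1, a chaperone that moves between nucleolus and Cajal body, had 188, 187 and 188 FPM with LPA, against 125, 128 and 121 FPM with PBS (log2 fold change 0.58, limma adjusted p = 3.2e-10), and NHP2, a core H/ACA protein, 60.9 ± 2.78 FPM with LPA and 39.9 ± 2.05 FPM with PBS. XPO1, the exportin, and NCBP1, of the cap-binding complex, had log2 fold changes of 0.36 and 0.39 (limma adjusted p = 5.4e-07 and 8.0e-05). By list, 5 of 8 assembly genes of the C/D particle, 3 of 6 H/ACA genes, 4 of 6 U3 particle genes, 4 of 6 cap and transport genes, 1 of 8 debranching, trimming and decay genes and 2 of 8 Cajal body genes rose. WRAP53, which takes scaRNAs to Cajal bodies, and COIL, the coilin that marks them, named for these roles after their values were seen, did not pass (limma adjusted p = 0.933 and 0.181).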

How the data were processed

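The authors deposited 1 table of FPM (fragments per total counted, a CPM-type unit) for 24 lanes, 4 lanes of each of 6 libraries, per the labels. Per the submitters' processing notes the build was mm10, a mouse genome, yet the table's identifiers are human, so no coordinates are printed. Aligner, counter and strand setting: not given in the sources used here. Of 19345 gene rows, 187 repeated an identifier with another symbol, and 1 blank row was left out, which left 19158 genes. Every listed gene had at least 10 reads over the lanes. The deposited CPM-type values were whole multiples of 1 read in 100% of cases within 0.02 of a read, so whole reads were recovered. Intervals and floors from them (3 reads, 0.343 to 0.546 FPM per library) cover counting error only.

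Lanes were averaged per library. Genes that reached 1 FPM in 3 or more of the 6 libraries entered limma 3.58.1 (trend, robust) on log2(FPM + 1), LPA minus PBS, with Benjamini-Hochberg adjustment over all tested genes at 0.05. The pseudocount makes low genes appear to change less than they do. Alternatives were median-of-ratios scaling, pseudocounts of 0.25 and 4, a filter at 5 FPM, no filter, a filter on the mean (chosen after seeing the data), each library left out, PBS 2 and LPA 3 left out together, a replicate block, and edgeR 4.0.16 and DESeq2 1.42.0 on recovered reads (R 4.3.3). The scripts were tested on simulated data. Sequences, lengths and hosts came from GENCODE release 29, which held all 92 members, read with Python 3.11.15 and Biopython 1.88. Named members were every tested SCARNA gene and, of SNORD genes, the 6 highest by mean, the 8 lowest and 4 highest by fold change, and the tested genes of rRNA cleavage, with other members that passed or missed the filter added after their values were seen; of the protein genes the 4 core ones and the 4 others with the smallest p. The members and lists were chosen with earlier results of these data known. The sequences of some members are not reported here.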

Additional observations from a re-analysis of the deposited data

How the results depend on the processing

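The number of SNORD genes that fell, 10, was 6 of 11 with a filter at 5 FPM and 16 by edgeR, and 6 to 13 when 1 library was left out; the SCARNA number, 10, was 5 to 13. The number that rose, 0 in both classes, was 1 in each without PBS 2 and LPA 3 together and 0 to 1 when 1 library was left out. The SNORD median log2 fold change, -0.55, was -0.32 with a pseudocount of 4, -0.21 with no filter, and -0.78 by edgeR and by DESeq2 (-0.61 to -0.42 with 1 library left out). The SCARNA median, -0.53, was -0.31 with a pseudocount of 4, -0.35 with a filter at 5 FPM, -0.68 by edgeR and -0.69 by DESeq2 (-0.56 to -0.41). Of the protein genes 23 rose, 13 on rescaled FPM, 13 by edgeR and 7 by DESeq2 (17 to 27 with 1 library left out), and the number that fell, 0, was 1 on rescaled FPM and by edgeR. Of the host genes 31 rose, 12 on rescaled FPM, 11 by edgeR and 8 by DESeq2 (26 to 35). The number of hosts that fell, 3, was 8 on rescaled FPM, 7 by edgeR, 6 by DESeq2 and 5 without PBS 2 and LPA 3 together (2 to 4). Among all tested genes 9.59% rose and 9.40% fell by edgeR, and 4.92% and 5.79% by DESeq2. Such shares were not taken for the fits with libraries left out. Signs were not compared over the fits for the tested genes SNORD12C, SNORD46, SNORD60, SNORD59A, SNORD93 and SNORD20. Among the other tested members, signs turned for 4 that did not pass. These were SNORD14A, at -0.014 on rescaled FPM (-0.21 to 0.23 with 1 library left out), SCARNA21 (-0.060 to 0.070), SNORD19C (-0.11 to 0.10) and SNORD13E (-0.38 to 0.072). SNORD14A was at -0.21 and SNORD19C at 0.10 without LPA 2, SCARNA21 at 0.020 without LPA 3 and at 0.070 without PBS 3, SNORD19C at 0.08 without PBS 3, and SNORD13E at 0.058 and 0.072 without LPA 1 and LPA 2. The cause of these shifts was not tested.

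The shares of all tested genes were also not taken for the fit with the replicate number as a block. In that fit 12 SNORD and 10 SCARNA genes fell, 23 protein genes rose, and 29 host genes rose and 3 fell. The numbers do not pair the libraries: deviations from the group means of same-numbered libraries had correlations of -0.0121, -0.0381 and -0.0486.

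With 3 libraries per group, genes under 1 FPM rest on a few reads; with no filter, 2 of the 43 SNORD genes under the filter passed by limma, SNORD32A and SNORD99.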
